A study of Mus musculus with 96 samples.

Results

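Pancreatic islets of male C57BL/6N mice that had spent 20 weeks on a high-fat diet (HFD) or a chow diet (CD) were compared by RNA sequencing, with 4 mice on each diet. These 8 islet libraries, chosen by their labels, are part of a series of 96 libraries of islets and liver, in which other mice were killed at weeks 4, 8, 12, 16 and 24. The HFD mice were HFD511, HFD516, HFD517 and HFD518, and received the Research Diets formula D12492, with 60% fat. The CD mice were CD501, CD502, CD505 and CD507, and received a LabDiet chow with 13.5% fat. All mice were bought at 4 weeks of age and housed under 1 light cycle, and the labels name no allele or agent besides the diet. The diets differ in more than their fat, since one is a purified formula and the other a grain-based chow, so the part of fat alone cannot be told apart from the rest of the formula. Islets were released with collagenase and picked by hand, so each library holds all islet cell types together with whatever vessel, blood and exocrine tissue came with them. Levels are given as FPKM, the fragments of a gene relative to its transcript length and to the size of the library.

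An islet is a cluster of endocrine cells in the exocrine pancreas. Beta cells make insulin and amylin, alpha cells make glucagon, delta cells make somatostatin and PP cells make pancreatic polypeptide. Glucagon raises hepatic glucose output, while somatostatin holds back the release of both insulin and glucagon. Long feeding of fat to this strain is known to enlarge the beta cell mass, and the rodent islet has its beta cells in the core and the other endocrine cells mostly at the rim.

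The labels were checked first. The Y-linked genes Ddx3y, Eif2s3y, Kdm5d and Uty were found in all 8 libraries, with no difference by diet that passed the test. Nnt, a mitochondrial transhydrogenase that is intact in the C57BL/6N substrain, lay between 22.5 and 26.1 FPKM. Insulin transcripts took between 23.5% and 29.0% of the fragments of a library. The libraries correlated with each other at r between 0.970 and 0.995 over the tested genes. One library stood apart. HFD511 scored -0.667 on the first principal component, which carried 49.3% of the variance, between the CD libraries at -16.3 to -9.84 and the other HFD libraries at 6.88 to 23.6. Of the genes described below as lower in HFD mice by at least 1 log2 unit, HFD511 had the highest of the 4 HFD values in 43 of 48, and of those higher, it had the lowest in 14 of 16. Values without it are therefore given beside the main results, and calls that changed when any 1 library was left out are named or counted for most genes.

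Of 11704 genes tested, 179 were higher and 376 lower in HFD mice at an adjusted p under 0.05 (limma, Benjamini-Hochberg), or 1.53% and 3.21% of the genes. A gene that also changed by at least 1 on the log2(FPKM + 1) scale was counted as differentially expressed (DEG). There were 16 higher and 48 lower DEGs, 0.137% and 0.41% of the genes. The median log2 fold change over all tested genes was -0.016. An unadjusted p under 0.05 was reached by 3004 genes. With median ratio scaling of the libraries, 304 genes were higher and 291 lower at the adjusted p, so the excess of lower over higher genes at small fold changes depended on the scaling, whereas the DEGs were then 19 higher and 45 lower. Without HFD511, 2207 of 11819 tested genes passed the adjusted p, 1078 higher and 1129 lower. The DEGs were then 106, with all 64 DEGs among them. HFD511 was singled out because it lay nearest to the CD mice, so leaving it out tends to widen the difference between the diets. Values without HFD511 are therefore no independent support. List counts without it, given below, are to be read beside these 1078 higher and 1129 lower genes. Leaving out another library left 219 genes (CD501), 149 (CD502), 207 (CD505), 238 (CD507), 414 (HFD516), 140 (HFD517) and 140 (HFD518), and between 38 and 69 DEGs.

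**Figure D1:**
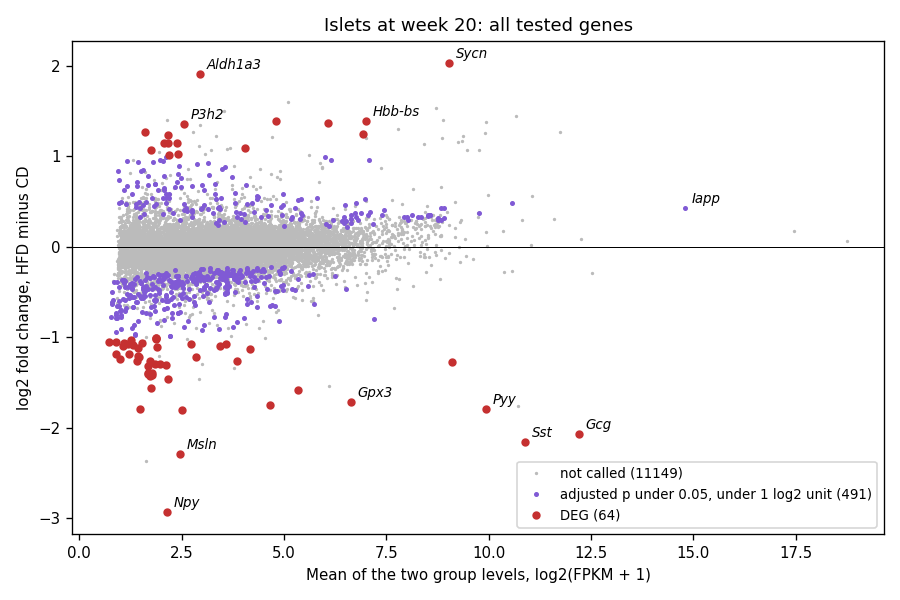
Each point is 1 of the 11704 genes tested in islets at week 20, with the mean of both group levels as log2(FPKM + 1) on the x axis and the log2 fold change of HFD minus CD on the y axis. The 64 DEGs are red, and the 491 genes that passed the adjusted p with a smaller change are purple. The hormone genes Gcg, Sst and Pyy lie far to the right among the lowest genes, and Sycn and Aldh1a3 lie at the top.

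Hormone transcripts of the islet's non-beta cells were lower in HFD mice. Gcg, which encodes glucagon, had 9291, 9965, 8422 and 8998 FPKM in CD501, CD502, CD505 and CD507, and 4630, 1914, 1460 and 1726 FPKM in HFD511, HFD516, HFD517 and HFD518. All HFD values lay below all CD values, as in 9.76% of all tested genes, and HFD511 stood midway. The reverse, all HFD above all CD, held for 4.84% of them, so groups that do not overlap do not by themselves set a gene apart, here and below. The mean of the CD group was 9169 ± 642 FPKM and that of the HFD group 2433 ± 1477 FPKM (SD, n = 4 each). The log2 fold change was -2.07 with a standard error (SE) of 0.32 and an adjusted p of 0.0141 (limma), and without HFD511 it was -2.44. The call was lost only without HFD518, among the 8 fits that each left out a library, at an adjusted p of 0.0557.

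Sst, which encodes somatostatin, had 4174, 3897, 3255 and 3850 FPKM in the CD mice and 1676, 940.3, 486.5 and 668.8 FPKM in the HFD mice, in the same order of mice as above. The groups did not overlap, and again HFD511 was the highest of its group. The fold change was -2.16 (SE 0.34, adjusted p = 0.0148), and -2.49 without HFD511. It no longer passed without CD502 (adjusted p = 0.0512) or HFD518 (0.0566). Since these are whole islets, fewer cells of a type and less RNA per cell cannot be told apart, here and in what follows.

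Npy and Pyy, members of the neuropeptide Y family to which pancreatic polypeptide belongs, fell with them. Npy itself, a peptide that restrains insulin release, had 9.13, 8.39, 9 and 18.3 FPKM in CD mice and 1.2, 0.56, 0.07 and 0.49 FPKM in HFD mice. Its fold change of -2.93 (SE 0.27, adjusted p = 0.00148) was the lowest of all tested genes and passed with each library left out. Pyy, which encodes peptide YY, had 1642, 1685, 1885 and 1709 FPKM in CD mice and 1028, 477.0, 305.0 and 416.7 FPKM in HFD mice. Both genes were lower in every HFD mouse than in any CD mouse. For Pyy the change was -1.79 (SE 0.32, adjusted p = 0.0258), but the call held only without HFD511 or HFD516, and the other 6 fits gave an adjusted p between 0.0547 (HFD517) and 0.0914 (HFD518).

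Ppy, which encodes pancreatic polypeptide, did not pass the threshold, although its groups did not overlap. It had 2548, 2779, 2711 and 3428 FPKM in CD mice and 1822, 760.9, 387.0 and 921.7 FPKM in HFD mice, with a fold change of -1.76 (SE 0.41, adjusted p = 0.0531), and it passed without HFD511 (adjusted p = 0.0064). Ghrl, which encodes ghrelin and is at a low level in adult islets, had 4.10 to 4.74 FPKM under CD and 0.42 to 1.81 FPKM under HFD. It fell by 1.40 on the log2 scale (SE 0.18, adjusted p = 0.00342) and passed with each library left out. Vip, a peptide of nerve fibres, had 1.33, 2.71, 14.6 and 9.59 FPKM in CD mice and at most 0.24 FPKM in HFD mice. Its change of -2.36 (SE 0.56) missed the threshold at an adjusted p of 0.055. Among the fits that left out a library it passed only without CD501 (0.0266), the CD mouse with the lowest value. With all 8 libraries it passed with a pseudocount of 0.1 (0.0208) and with insulin left out of the total (0.0488). Pooled (0.00162) or non-robust variances (0.0349) also called it, but median ratio scaling (0.0552) and no filter on low FPKM (0.0522) did not.

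**Figure D2:**
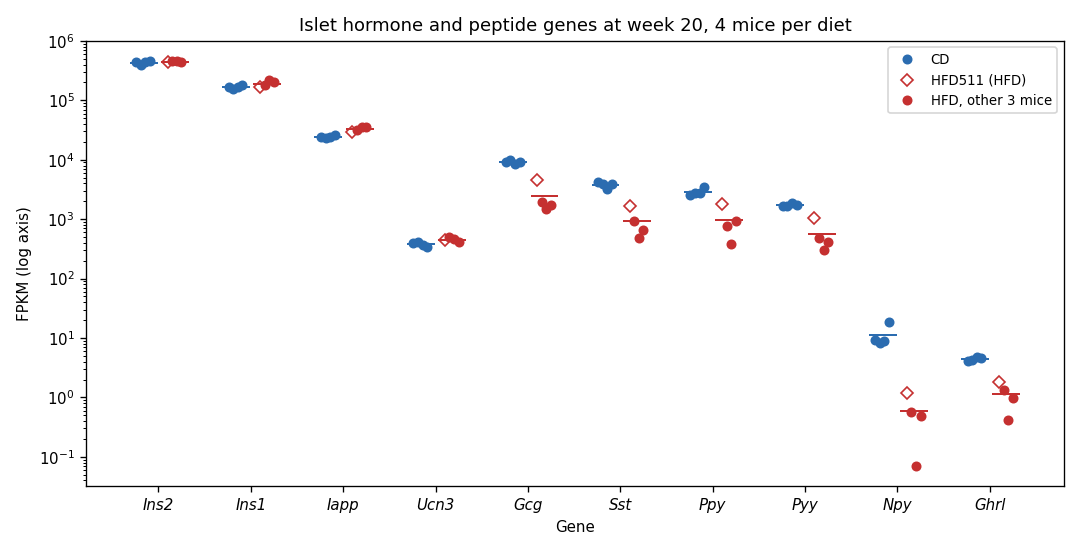
FPKM of 10 islet hormone and peptide genes in each mouse at week 20, on a log axis, with CD in blue, HFD in red and an open diamond for HFD511. Horizontal bars are group means of 4 mice. Ins1 and Ins2 overlap between the diets, whereas Gcg, Sst, Ppy, Pyy, Npy and Ghrl are lower in each HFD mouse, with HFD511 nearest to the CD mice.

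The beta cell hormones moved otherwise. Ins1 had 170937, 154648, 169108 and 183847 FPKM in CD mice and 168229, 179600, 216456 and 200160 FPKM in HFD mice. Ins2 had 395827 to 456102 FPKM under CD and 439652 to 461867 FPKM under HFD. For both insulin genes the groups overlapped, with fold changes of 0.17 (SE 0.11, adjusted p = 0.341) and 0.06 (SE 0.09, adjusted p = 0.694). Iapp, which encodes amylin and is released together with insulin, had 23826, 23601, 23945 and 26160 FPKM in CD mice and 29138, 31348, 35173 and 35350 FPKM in HFD mice. It was higher in each HFD mouse, by 0.42 (SE 0.09, adjusted p = 0.0347). That call held only without HFD511 among the fits that left out a library (adjusted p between 0.0613 without CD507 and 0.127 without CD502 in the rest), and was lost without robust variances (0.206) and with insulin left out of the total (0.0516). Ucn3, a peptide of mature beta cells, had 334.3 to 420.4 FPKM under CD and 413.6 to 493.3 FPKM under HFD, and did not pass (0.25, adjusted p = 0.115).

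A ratio of hormones within a library does not depend on how libraries are scaled. Per 1000 FPKM of Ins1 and Ins2 together, Gcg was at 15.3 ± 1.97 in CD and 3.87 ± 2.53 in HFD mice (SD, n = 4 each), Sst at 6.32 ± 0.805 and 1.498 ± 0.895, and Ppy at 4.76 ± 0.537 and 1.55 ± 1.03. In HFD511 the ratios were 7.62, 2.76 and 2.997, while HFD517 had 2.15, 0.717 and 0.571. Iapp rose against insulin, from 40.5 ± 1.75 to 51.02 ± 3.25. The order of the HFD mice was the same for Gcg and Sst, with HFD511 highest, then HFD516, HFD518 and HFD517.

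The promoters of the 3 hormone genes below are shown because their genes had low values in the same HFD mice, and the letters show what these promoters do and do not share. They are the 250 bases before the RefSeq start in GRCm38.p6, all on the minus strand and printed 5′ to 3′ with gene name and position before each. Capitals mark TGACGTCA, the palindromic cAMP response element bound by CREB, and the box of letters TATAAA that often stands upstream of a start, each searched on both strands, so that the box on the other strand reads TTTATA in the line of Gcg.
Sst (chr16:23890845-23891094): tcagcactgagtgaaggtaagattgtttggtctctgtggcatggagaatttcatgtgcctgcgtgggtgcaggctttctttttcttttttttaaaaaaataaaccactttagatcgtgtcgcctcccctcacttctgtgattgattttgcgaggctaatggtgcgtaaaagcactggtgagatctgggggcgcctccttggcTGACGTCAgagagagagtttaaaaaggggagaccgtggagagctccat
Gcg (chr2:62483654-62483903): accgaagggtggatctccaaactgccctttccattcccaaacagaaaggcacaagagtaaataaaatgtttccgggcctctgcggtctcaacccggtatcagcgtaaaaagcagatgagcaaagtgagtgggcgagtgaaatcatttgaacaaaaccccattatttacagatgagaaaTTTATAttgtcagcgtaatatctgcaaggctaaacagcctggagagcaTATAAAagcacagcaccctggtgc
Ppy (chr11:102101320-102101569): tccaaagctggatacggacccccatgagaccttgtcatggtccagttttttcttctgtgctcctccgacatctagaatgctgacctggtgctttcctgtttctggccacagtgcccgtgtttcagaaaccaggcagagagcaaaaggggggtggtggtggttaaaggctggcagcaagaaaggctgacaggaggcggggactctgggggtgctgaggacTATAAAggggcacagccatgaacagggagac
The Sst element begins 48 bases before the start, and the boxes on the printed strand of Gcg and Ppy begin 24 and 31 bases before it. TGACGTCA was present in 1.55% of all 32851 promoters of this length and in 1 of the 31 lower DEGs with an entry, which is Sst. TATAAA was present in 12.4% of all promoters and in 3 of these 31, so the letters of neither motif set the lower genes apart.

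Transcription factors and other markers of alpha and delta cells were low in the same mice. Of 11 alpha cell markers, 10 were tested and 6 fell, against 3.21% of all genes, and the list's median log2 fold change was -1.18. Irx1 and Irx2, homeobox genes expressed in alpha cells, changed by -1.30 and -1.31 (adjusted p = 0.00502 and 0.00591). Irx1 had 4.46, 4.61, 5.16 and 3.96 FPKM in CD mice and 2.36, 1.04, 1.11 and 0.76 FPKM in HFD mice, so that the groups did not overlap and HFD511 was again nearest to the CD mice. Both genes passed with each library left out.

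The size of the change differed within the list. The HFD mean was 0.265 of the CD mean for Gcg, 0.29 for Irx1, 0.31 for Irx2 and 0.436 for Ttr, which encodes transthyretin. In contrast, Slc7a2, a transporter of arginine (-0.39, adjusted p = 0.0656), Dpp4, a peptidase (-0.06, adjusted p = 0.814) and Gc, the vitamin D binding protein (0.24, adjusted p = 0.202), did not pass, with HFD means at 0.758, 0.977 and 1.19 of CD. The number of alpha cell markers called lower was 8 without HFD511 and between 4 and 6 with any other library left out, and Gc was then called higher without HFD511 (0.33, adjusted p = 0.048). Summed over the 11 markers, alpha cell transcripts were between 0.918 and 1.09 of the CD mean in CD mice, at 0.525 in HFD511 and between 0.184 and 0.242 in the other HFD mice.

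Of 5 delta cell markers, 4 were tested and 3 fell, against 3.21% of all genes, with a median of -1.52. Besides Sst, these were Hhex, the transcription factor that delta cells need, and Rbp4, a retinol carrier abundant in delta cells. Hhex had 7.26, 5.16, 7.31 and 5.19 FPKM in CD mice and 3.03, 2.07, 0.35 and 1.71 FPKM in HFD mice, a change of -1.46 (SE 0.30, adjusted p = 0.0384). Rbp4 changed by -1.58 (SE 0.30, adjusted p = 0.0336). Casr, the calcium-sensing receptor, which other islet cells also express, was at 19.9 ± 3.08 FPKM under CD and 18.8 ± 4.37 FPKM under HFD (SD, n = 4 each) and did not pass. All 3 calls held without HFD511 and without HFD516, but none held without CD502 or without HFD518, and 1 or 2 held without each of the other libraries. Hhex was also lost with a pseudocount of 0.1 (adjusted p = 0.0743).

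**Figure D3:**
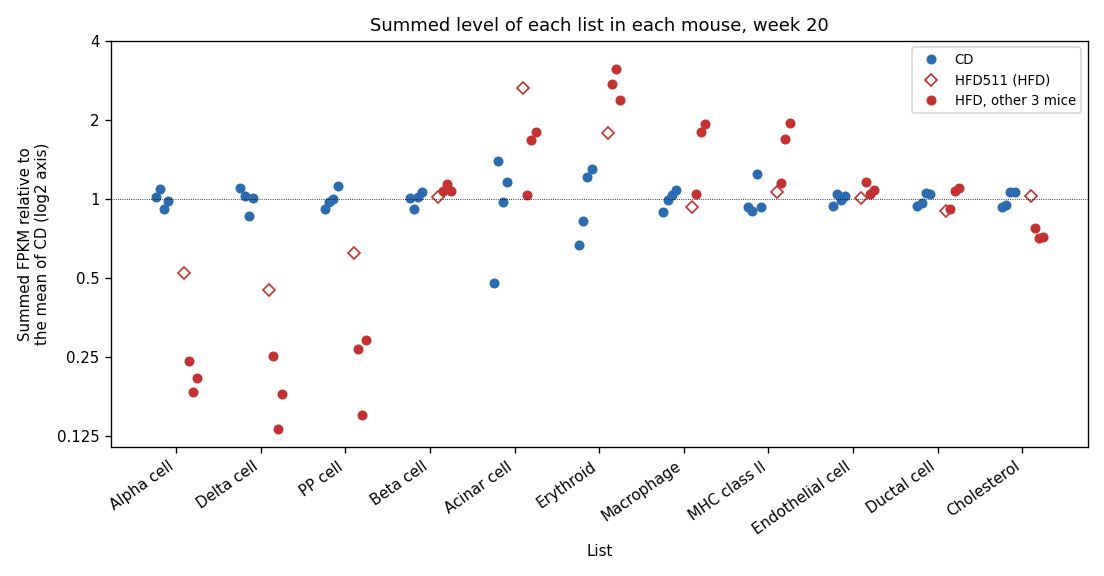
Summed FPKM of each marker or gene list in each mouse at week 20, divided by the mean of the 4 CD mice and drawn on a log2 axis, with CD in blue, HFD in red and an open diamond for HFD511. Alpha, delta and PP cell sums lie lowest in HFD517, HFD518 and HFD516, while HFD511 lies between 0.449 and 0.62 of the CD mean. Erythroid sums lie higher in every HFD mouse, acinar sums in all but HFD516, and macrophage and MHC class II sums are high in HFD517 and HFD518 alone.

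Most of the other lower DEGs belonged to none of the lists. Of the 48, 12 were in the hormone or alpha, delta and PP cell lists, 34 were in no list, and the remaining pair, Krt19 and Pdk4, is described with its list below. Msln, which encodes the surface protein mesothelin, had 9.69, 8.45, 13.95 and 11.0 FPKM in CD mice and 2.95, 1.02, 0.45 and 1.78 FPKM in HFD mice, a change of -2.28 (SE 0.29, adjusted p = 0.00614). Kcnj12, an inward rectifier potassium channel, had 3.87 to 4.77 FPKM under CD and 0.08 to 0.91 FPKM under HFD (-1.79, SE 0.17, adjusted p = 0.000985). Fev, a factor of the endocrine lineage and of serotonin neurons, had 3.40 to 4.82 FPKM under CD and 0.69 to 1.46 FPKM under HFD (-1.41, SE 0.13, adjusted p = 0.000858). None of these overlapped between the diets, a pattern that 9.76% of all tested genes had in this direction, and all passed with each library left out.

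Eef1a2, a translation elongation factor of muscle and nerve cells, changed by -1.81 (SE 0.19, adjusted p = 0.00177), and Kcnk3, a leak potassium channel, by -1.43 (SE 0.17, adjusted p = 0.00263). Gpx3, a secreted glutathione peroxidase, had 174.2, 182.6, 175.9 and 165.1 FPKM in CD mice and 88.4, 47.6, 40.02 and 44.6 FPKM in HFD mice (-1.72, SE 0.21, adjusted p = 0.00503). These 3 passed with each library left out. Sfrp5, a secreted antagonist of Wnt signaling, separated HFD517 and HFD518, at 7.04 and 6.40 FPKM, from HFD511 and HFD516, at 21.9 and 19.4 FPKM, and the CD mice had between 39.3 and 45.1 FPKM. Its change of -1.75 (SE 0.38, adjusted p = 0.0471) held only without HFD511 or HFD516, with the adjusted p between 0.0758 (CD507) and 0.133 (HFD517) in the other fits. Gm609, an uncharacterised gene, behaved alike in the fits (-1.42, SE 0.28, adjusted p = 0.0296, and between 0.0606 without CD507 and 0.0965 without CD502 in the 6 fits where it was lost). The 33 lower DEGs that follow the 15 lowest changed by -1.40 to -1.01.

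Among the higher DEGs, Aldh1a3 had a change below only that of the acinar gene Sycn. This retinaldehyde dehydrogenase is used as a marker of beta cells that have lost identity. It had 2.40, 3.77, 3.70 and 1.71 FPKM in CD mice and 6.28, 21.0, 16.8 and 13.5 FPKM in HFD mice, so that HFD511 was again nearest to the CD range. The change was 1.91 (SE 0.35, adjusted p = 0.0289), and 2.23 without HFD511. It passed without HFD511 or HFD516, and missed the threshold in the other 6 fits, with an adjusted p between 0.0588 (CD502) and 0.0995 (HFD517). Of the other progenitor genes, Gata6, a factor of the pancreatic progenitor, was lower (-0.71, SE 0.12, adjusted p = 0.0144, also with each library left out), Neurog3, which starts the endocrine lineage, did not pass (-0.14, adjusted p = 0.725), and 7 of the 13 listed were too low to test, among them Sox9 and Gast.

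P3h2, a collagen prolyl hydroxylase, had 2.57, 2.27, 2.73 and 3.14 FPKM in CD mice and 7.03, 8.93, 8.75 and 8.95 FPKM in HFD mice, with the lowest p of all genes (1.36, SE 0.10, adjusted p = 0.000338). Inhbb, which encodes the inhibin and activin beta-B subunit, had 1.57 to 2.86 FPKM under CD and 4.86 to 6.51 FPKM under HFD (1.15, SE 0.13, adjusted p = 0.00177). Cd36, a fatty acid transporter, had 1.33 to 2.11 FPKM under CD and 4.24 to 6.32 FPKM under HFD (1.14, SE 0.12, adjusted p = 0.00148). In none of these did the diets overlap, as in 4.84% of all tested genes in this direction, and HFD511 was the highest HFD mouse for Inhbb. All 3, and Pcp4, a calmodulin-binding peptide (1.09, SE 0.15, adjusted p = 0.00579), passed with each library left out.

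P3h2 and Pcp4 belong to a list of 34 key genes that the study drew up from these same samples, so their direction is not independent evidence. Of its 26 tested members, 16 were higher, against 1.53% of all genes, and none lower at week 20, with a median of 0.54, and 22 of these 26 were called without HFD511 and between 6 and 13 of the list without any other library, the 6 without CD502. Of the 16 higher DEGs, 7 are in it, among them Cxcr4, a chemokine receptor (1.15, SE 0.20, adjusted p = 0.0155), Cpne4, a calcium-dependent membrane-binding protein (1.24, SE 0.20, adjusted p = 0.0141), Slc35f4, a solute carrier (1.26, SE 0.23, adjusted p = 0.0189) and Smoc1, a matrix protein (1.02, SE 0.23, adjusted p = 0.0429). Smoc1 had 3.27 FPKM in HFD511 and between 7.47 and 8.74 FPKM in the other HFD mice, against between 2.45 and 2.89 FPKM in CD mice. Large, a glycosyltransferase outside the list, had the same shape, with 1.70 FPKM in HFD511 and 3.60 to 5.67 FPKM in the others (1.06, SE 0.25, adjusted p = 0.0489). Smoc1 and Large passed only without HFD511 among the 8 fits, with the adjusted p up to 0.127 and 0.143 in the rest. The calls were lost for Slc35f4 in 6 fits (up to 0.0687 without CD502), for Cxcr4 in 3 (up to 0.0606 without HFD517) and for Cpne4 in 2 (0.0512 without CD502 and 0.0516 without HFD518).

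Hemoglobin transcripts were higher in HFD islets. All 5 erythroid markers rose, against 1.53% of all genes, with a median of 1.36. Hbb-bs, an adult beta globin, had 52.2, 62.7, 99.8 and 100.4 FPKM in CD mice and 148.4, 216.3, 259.7 and 192.0 FPKM in HFD mice (1.39, SE 0.25, adjusted p = 0.0227). Alas2, the first enzyme of heme synthesis in red cell precursors, had 0.61 to 1.36 FPKM under CD and 2.33 to 3.23 FPKM under HFD (0.94, SE 0.13, adjusted p = 0.00614). The other 3 were Hbb-bt (1.38), Hba-a1 (1.24) and Hba-a2 (1.36, adjusted p = 0.0499). Since Hbb-bs and Hbb-bt, and likewise Hba-a1 and Hba-a2, are near-identical copies that share reads, they are not separate measurements. Only 1 of the 5 was called without HFD517 or without HFD518, and 2 without CD502. The summed level was between 0.667 and 1.30 of the CD mean in CD and between 1.78 and 3.13 in HFD mice. How much blood remained in the picked islets was not tested.

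Acinar transcripts, which come from the exocrine tissue around the islets, were also higher on average, but with a wide spread. Of 26 markers, 24 were tested, 21 had a higher mean in HFD mice and the median change was 1.00, yet only Sycn passed the test. Sycn, which encodes the zymogen granule protein syncollin, had 130.6, 322.0, 247.4 and 329.1 FPKM in CD mice and 1633, 576.4, 1092 and 933.5 FPKM in HFD mice (2.03, SE 0.38, adjusted p = 0.0326). It was lost in 5 of the 8 fits, with an adjusted p between 0.0534 (CD507) and 0.109 (HFD517). Prss2, a trypsinogen (1.45, adjusted p = 0.0751), Clps, colipase (1.53, adjusted p = 0.0716), and Ctrb1, a chymotrypsinogen (1.27, adjusted p = 0.079), did not pass, and Amy2a5, an amylase, was at 4906 ± 2145 FPKM under CD and 4933 ± 1507 FPKM under HFD (SD, n = 4 each). Summed over the list, acinar transcripts were 0.478, 1.39, 0.974 and 1.16 of the CD mean in CD501, CD502, CD505 and CD507, and 2.63, 1.03, 1.67 and 1.80 in HFD511, HFD516, HFD517 and HFD518. HFD516 thus lay within the CD range and HFD511, the HFD mouse with the highest level of Gcg and Sst, was highest in acinar transcripts. Without HFD516, 5 acinar markers were called higher. The 6 tested Reg genes, which acinar cells and stressed islets express, all had a higher mean in HFD mice, with a median of 0.93, and none passed, Reg1 being at 1.14 (adjusted p = 0.159).

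The markers of other cells that islets can carry gave few calls. All 10 tested macrophage markers had a higher mean in HFD mice, with a median of 0.39 and none past the threshold with all 8 libraries. Without HFD511, 2 of them passed, beside 1078 of all 11819 genes called higher. These were Adgre1 (0.44, adjusted p = 0.0395) and Cd68 (0.65, adjusted p = 0.035), both surface or lysosomal proteins of macrophages. Pooling the spread of all 12 islet groups called 3. Their sum was 0.935 and 1.05 of the CD mean in HFD511 and HFD516, and 1.79 and 1.93 in HFD517 and HFD518. The same pair was high in MHC class II genes, at 1.69 and 1.94 against 1.06 and 1.15 in HFD511 and HFD516, and Cd74, the invariant chain, had 173.7 and 207.5 FPKM there against 90.2 to 129.9 FPKM in CD mice (0.51, adjusted p = 0.162). No MHC class II gene of 5 passed with all 8 libraries, and 2 did without HFD511, H2-Aa (0.71, adjusted p = 0.0237) and H2-DMb1 (0.93, adjusted p = 0.0395). HFD517 and HFD518 are also the mice with the lowest alpha and delta cell sums. The part of immune cells in any of the changes was not tested.

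No endothelial marker of 11 passed (median 0.13), Pecam1 being at 0.28 (adjusted p = 0.0858) and Cdh5 at 0.23 (adjusted p = 0.0703). Without HFD511, 3 were called higher, beside 1078 of all 11819 genes. Rgs5, a marker of pericytes, was the only stromal marker of 8 to pass, with 25.1, 26.6, 24.9 and 26.3 FPKM in CD mice and 36.5, 38.5, 35.04 and 33.6 FPKM in HFD mice (0.46, SE 0.06, adjusted p = 0.00288). The groups did not overlap, as in 4.84% of all tested genes in this direction, and the call held with each library left out. Of 7 tested ductal markers only Krt19, a keratin that the study used as a marker of purity, passed, with 2.01 to 2.97 FPKM under CD and 0.40 to 0.94 FPKM under HFD (-1.03, SE 0.12, adjusted p = 0.00235). It held with each library left out but not with the spread pooled over all 12 islet groups (adjusted p = 0.0676), while Krt7 was at 129 and 127 FPKM on average. No T cell and no adipocyte marker reached 1 FPKM in 4 libraries, the B cell marker Cd79a was at -0.26 (adjusted p = 0.453), and neither of 2 tested Schwann cell markers passed (median 0.11), although 1 did without HFD511.

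**Figure D4:**
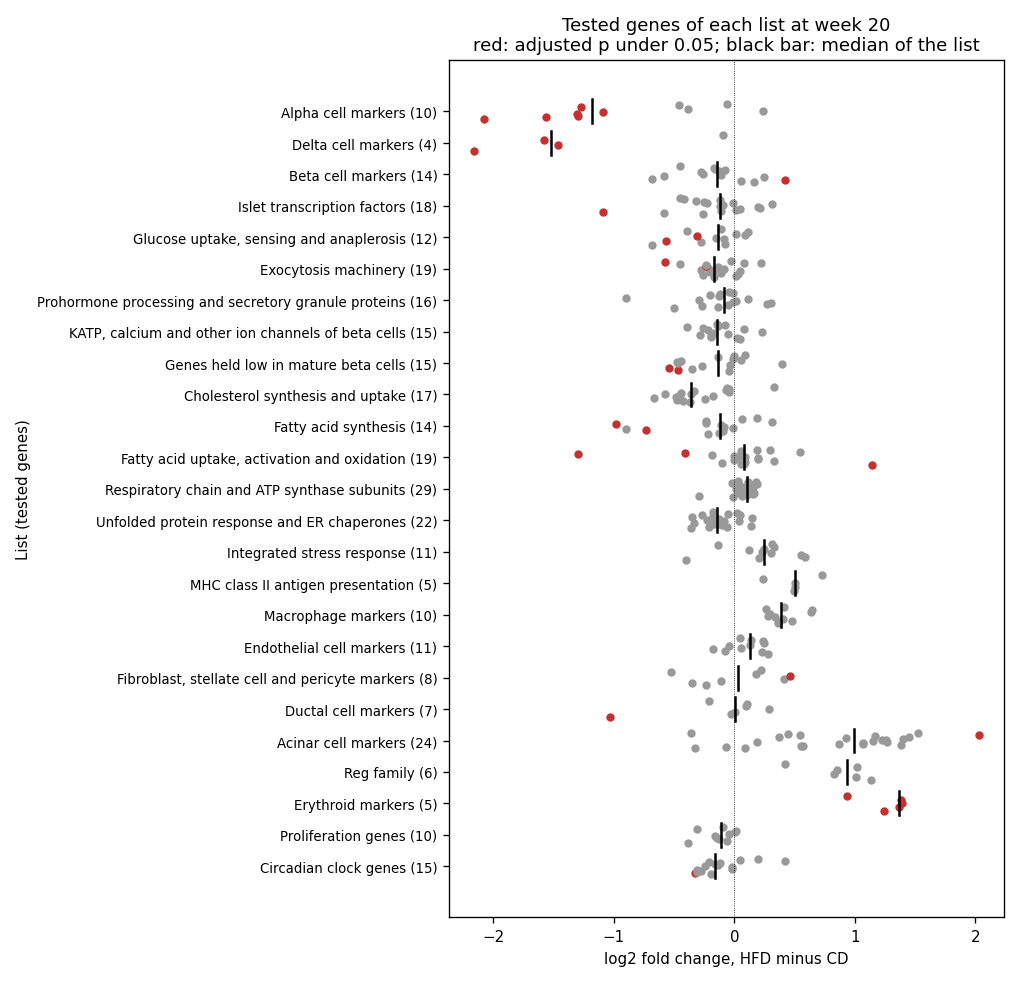
Log2 fold change of HFD minus CD for every tested gene of 25 lists in islets at week 20, with the list and its number of tested genes on the y axis, genes past the adjusted p in red and the median of the list as a black bar. Alpha and delta cell markers are spread from about 0 to below -2, erythroid markers are all red and above 0.9, and acinar markers are mostly grey and above 0.

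Few genes of the beta cell itself passed the threshold with all 8 libraries. Of 14 beta cell markers, Iapp was higher and none was lower, with a median of -0.14, and 2 were lower without HFD511. Slc2a2, the glucose transporter GLUT2, was at 252.4 ± 32.2 FPKM under CD and 164.1 ± 58.4 FPKM under HFD (-0.68, SE 0.23, adjusted p = 0.116), and it passed without HFD511 (-0.85, adjusted p = 0.033). Mafa, a factor of mature beta cells, was at 157.6 ± 44.9 and 102.8 ± 16.1 FPKM (-0.58, SE 0.19, adjusted p = 0.101; SD, n = 4 each). Of 18 tested islet transcription factors 1 passed, and 7 without HFD511 (3 higher, 4 lower). Pdx1 (-0.26, adjusted p = 0.34) and Nkx6-1 (-0.11, adjusted p = 0.72) did not pass with all 8 libraries.

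In glucose handling, 2 of 12 tested genes fell, against 3.21% of all genes, with a list median of -0.13, and 4 fell without HFD511. Fbp1, a gluconeogenic phosphatase at a low level in beta cells, had 2.11 to 2.82 FPKM under CD and 1.17 to 1.56 FPKM under HFD (-0.57, SE 0.09, adjusted p = 0.0131), and Pcx, pyruvate carboxylase, which refills the citric acid cycle, was at -0.31 (SE 0.07, adjusted p = 0.0471). Of 14 tested glycolytic genes only Hk1, a hexokinase that mature beta cells keep low, fell (-0.47, SE 0.08, adjusted p = 0.0154), against 3.21% of all genes. Oat, ornithine aminotransferase, another of the genes held low in beta cells, fell as well (-0.54, SE 0.08, adjusted p = 0.00766). Of the 15 tested genes of that kind, 2 were called lower and none higher, against 3.21% and 1.53% of all genes. At so low a share of genes called higher, the lack of one among 15 does not set them apart, and 3 had a higher mean. Oat and Fbp1 passed with each library left out, and Pcx only without HFD511 (adjusted p up to 0.134, without HFD518). Pcx was also lost with median ratio scaling (0.0553), insulin left out of the total (0.0605) or no filter on low FPKM (0.0589). Hk1 was lost without HFD517 (0.0592) or HFD518 (0.0596).

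For secretion, 2 of 19 tested exocytosis genes fell, against 3.21% of all genes, Doc2b, a calcium sensor of vesicle fusion (-0.57, SE 0.13, adjusted p = 0.0392), and Rims2, a protein of the release site (-0.24, SE 0.06, adjusted p = 0.0499). The list median was -0.16. Doc2b held only without CD501 or HFD511 (adjusted p of 0.117 without CD502 and 0.115 without HFD518) and Rims2 only without HFD511 (up to 0.151 without HFD517). Rims2 was also lost with median ratio scaling (0.0769), with the spread pooled over all groups (0.113) and in each of the other 4 alternatives on all 8 libraries. Without HFD511, 5 exocytosis genes were lower and 1 higher. No channel of 15 and no granule protein of 16 passed with all 8 libraries, and among the nearest were Kcnk16, a leak potassium channel of beta cells (-0.39, adjusted p = 0.0608), Scg2, secretogranin II (0.30, adjusted p = 0.0502), and Pcsk1, a prohormone convertase (-0.50, adjusted p = 0.0671). These 3 passed without HFD511 (adjusted p = 0.00629, 0.0197 and 0.0184), where 4 channels and 4 granule proteins were lower and 1 granule protein higher. No islet receptor of 16 passed with all 8 libraries. Without HFD511, 2 were lower, beside 1129 of all 11819 genes. The fatty acid receptor Ffar1 was at -0.35 (adjusted p = 0.0902) and the prolactin receptor Prlr at -0.73 (adjusted p = 0.135, and 0.0431 without HFD511).

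Of 19 tested genes of fatty acid uptake and oxidation, Cd36 rose and 2 fell, against 1.53% and 3.21% of all genes. Pdk4, the kinase that shuts off pyruvate dehydrogenase, had 4.10, 5.68, 4.72 and 5.82 FPKM in CD mice and 2.37, 1.46, 0.89 and 1.34 FPKM in HFD mice (-1.29, SE 0.17, adjusted p = 0.00342), and passed with each library left out. Plin3, a lipid droplet coat protein, was at -0.41 (SE 0.10, adjusted p = 0.0475, and lost in each left-out fit but that without HFD511, up to 0.133), and was lost in 4 of 6 alternatives on all 8 libraries, with an adjusted p up to 0.0704. Of 14 tested genes of fatty acid synthesis 2 fell, against 3.21% of all genes. These were the desaturases Scd1 (-0.73, SE 0.14, adjusted p = 0.0193) and Fads2 (-0.98, SE 0.23, adjusted p = 0.0471), of which Scd1 held in 3 of the 8 fits that left out a library (up to 0.0655 in the rest, without HFD518) and Fads2 only without HFD511 (up to 0.143 without HFD517). Fads2 also missed the threshold with median ratio scaling (0.0543), with insulin left out of the total (0.0514) and with no filter on low FPKM (0.0575). Without HFD511, 5 synthesis genes were lower and 1 higher.

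Of 17 genes of cholesterol synthesis and uptake, 16 had a lower mean in HFD mice, the median was -0.36 and none passed the threshold with all 8 libraries, whereas 10 had an unadjusted p under 0.05. Lss, lanosterol synthase, had 8.66 FPKM in HFD511 and between 4.53 and 6.98 FPKM in the other HFD mice, against between 8.77 and 9.98 FPKM in CD mice (-0.57, SE 0.16, adjusted p = 0.0703). HFD511 was at the CD level for the sum of this list (1.02 of the CD mean against 0.712 to 0.772 in the other HFD mice), and without it 11 of the 17 genes were called lower and 1, Abcg1, a cholesterol exporter, higher.

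Stress and energy genes gave no call with all 8 libraries. None of 22 genes of the unfolded protein response passed (median -0.14), and Hspa5, the chaperone BiP, had 614.7 and 591.0 FPKM in CD501 and CD502 but 430.8 and 410.7 FPKM in CD505 and CD507, a gap within the CD group wider than that between the group means (-0.36, adjusted p = 0.203). None of 11 genes of the integrated stress response passed (median 0.24, with Trib3 at 0.59, adjusted p = 0.115), and neither did any of 29 subunits of the respiratory chain and ATP synthase, of which 26 had a higher mean (median 0.10). Without HFD511, 3 genes of the integrated stress response and 6 of the respiratory chain and ATP synthase were called higher, and none of the unfolded protein response. Over all 11819 genes tested without HFD511, 1078 were called higher. Of 10 tested proliferation genes none passed (median -0.11), with Tyms at -0.31 (adjusted p = 0.105). Of 9 basement membrane genes Hspg2, perlecan (-0.61, SE 0.10, adjusted p = 0.0114), and Nid2, nidogen-2 (-0.60, SE 0.08, adjusted p = 0.00583), fell, against 3.21% of all genes. Both passed with each library left out. Clock was the 1 circadian gene of 15 to fall (-0.33, SE 0.08, adjusted p = 0.0471, and held only without HFD511, up to 0.142). It missed the threshold with median ratio scaling (0.0574), with insulin left out of the total (0.0519) and with no filter on low FPKM (0.0584). No interferon-stimulated gene of 11, cytokine of 4 or immediate early gene of 14 passed with all 8 libraries, and without HFD511 an interferon-stimulated gene was higher, another lower and 1 cytokine lower.

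The genes were then followed into the islets of weeks 16 and 24, which came from other mice with their own CD controls. Of the 64 DEGs of week 20, 61 were tested at week 16, where 59 had the same direction and 55 also passed the adjusted p, against 3.3% of all genes called higher and 5.15% called lower there. The 44 lower ones that passed were 44 of 45 tested. At week 24, 60 were tested, all 60 had the same direction and 50 passed, against 6.57% and 1.73% of all genes. At week 8, 26 of 62 tested genes passed in the direction of week 20, against 0.602% of all genes called higher and 4.67% called lower. At week 12 it was 44 of 61, against 2.18% and 2.35%. None of the 60 genes tested at week 4 passed, where 51 had the direction of week 20. How many of all genes passed at week 4 was not counted, so the lack of calls there does not set these genes apart.

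Gcg changed by -0.15, -0.58, -1.41 and -2.25 at weeks 4, 8, 12 and 16, by -2.07 at week 20 and by -2.93 at week 24. Sst changed by -0.22, -0.71, -1.21, -2.01, -2.16 and -2.66 over the same weeks. The step from week 20 to its neighbours did not pass the test for either gene. For Gcg the effect at week 20 minus that at week 24 was 0.86 (SE 0.34, adjusted p = 0.327), and minus that at week 16 it was 0.18 (SE 0.34, adjusted p = 0.935).

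Aldh1a3 was at 3.02 at week 16 and 3.01 at week 24 against 1.91 at week 20, and the difference from week 16 (-1.11, SE 0.51) did not pass either (adjusted p = 0.648). Sycn behaved otherwise. Its change was -0.90 at week 16 and 0.01 at week 24, where neither passed (adjusted p = 0.31 and 0.993). Acinar markers as a list had a median of 1.00 at week 20 but -1.51 at week 16, where 6 of 25 tested were lower, and -0.45 at week 24. Erythroid markers were higher at week 16 (5 of 5 called, median 0.89), and none was called at week 24 (median 0.51).

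**Figure D5:**
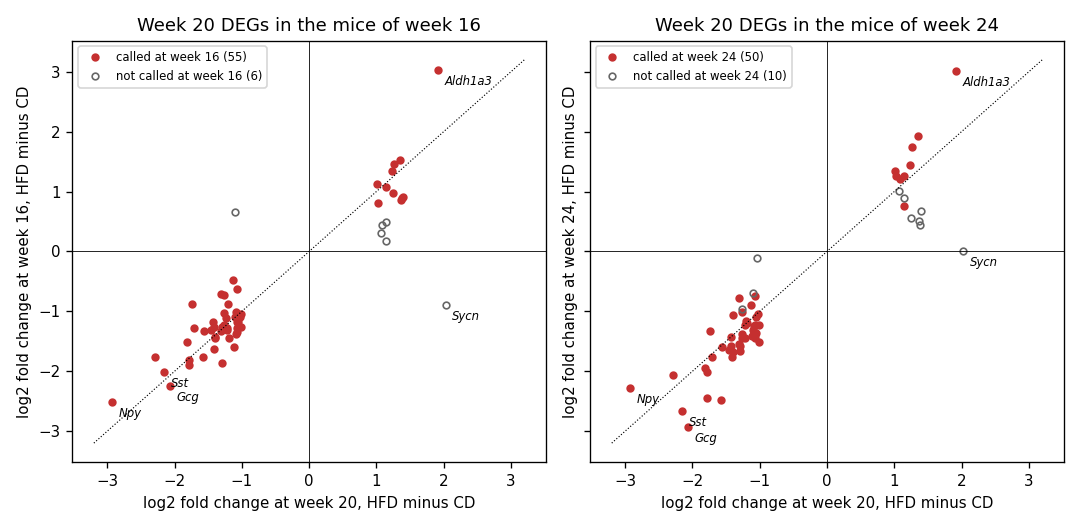
The 64 DEGs of week 20, with their log2 fold change at week 20 on the x axis and at week 16 (left) or week 24 (right) on the y axis, in red where the gene passed the adjusted p in that week's own mice and open where it did not. The dotted line marks equal change. Most lower genes lie near the line in both panels, and Sycn is the outlying open point at 2.03 on the x axis.

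Tests of the difference itself found few genes particular to week 20. No gene had an HFD effect at week 20 that differed from that at week 16 or at week 24 at an adjusted p under 0.05 (limma, 12378 genes), although 919 and 1534 genes had an unadjusted p under 0.05. Against the mean effect of the other 5 weeks, 25 genes (0.202%) passed, 13 with a higher and 12 with a lower effect at week 20. Tnfrsf23, a decoy receptor of the TNF family, was lower in HFD mice at week 20 (-0.37, adjusted p = 0.0494) and at 0.31 to 0.43 in all other weeks, a difference of -0.74 (SE 0.13, adjusted p = 0.00846). Its call at week 20 held only without HFD511 among the 8 fits that left out a library (up to 0.145 without HFD518). Of the alternatives on all 8 libraries, it held only with the spread pooled over all groups (0.0355), and the others gave up to 0.0611. Gls2, the liver-type glutaminase, had 1.25, 1.92, 1.76 and 1.23 FPKM in CD mice and 2.79, 3, 3.06 and 3.36 FPKM in HFD mice at week 20, and its effect was 0.88 above the mean of the other weeks (SE 0.18, adjusted p = 0.0436).

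Kcnk16 was at -0.39 at week 20 and between -0.03 and 0.12 in the other weeks, a difference of -0.45 (SE 0.10). Tifa, an adaptor of innate immune signaling, was at 0.53 at week 20 (adjusted p = 0.0283), a call that held in 2 of the 8 fits that left out a library. Its difference was 0.53 (SE 0.10, adjusted p = 0.031). Gpx3 and Lingo1, a receptor component of neurons (-1.06 at week 20), were lower in other late weeks too, and their differences of -0.93 and -0.51 are set against a mean that includes the early weeks. Ly86, a myeloid surface protein, differed by 0.81, and Rps20, a protein of the small ribosomal subunit, by 0.38. This list was fragile, since no gene passed without CD501, CD502 or HFD518, 1 passed without HFD517, 8 without CD505 and 11 without CD507, while 358 passed without HFD511.

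The livers of the same 8 mice gave little to compare, because 45 of the 64 genes were too low there to test. Of the 19 tested, 9 had the direction seen in islets, and 2 of these passed, against 1.73% of all liver genes called higher and 0.746% called lower. Cd36, which rose in islets, was also higher in HFD liver, by 2.86 (adjusted p = 0.00337). Gpx3, lower in islets, was at 0.74 in liver (adjusted p = 0.0488), that is, higher in HFD mice, and Hbb-bs was at -0.77 (adjusted p = 0.257).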

How the data were processed

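FPKM of 21990 genes (20155 with values, to 2 decimals) were deposited by the authors in 1 table, together with group means and their own log2 ratios and p-values by DEGseq, which were not used. The submitters' processing notes name HISAT2 2.0.4, Bowtie2 2.2.5, RSEM 1.1.12, DESeq2 and GRCm38.p5, with no role given. RSEM estimates need not be whole reads, so no counts were recovered, the depth behind a value is unknown and no counting intervals are given. Poly(A) RNA was sequenced on a BGISEQ-500.

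Groups came from the mouse labels. Genes that reached 1 FPKM in 4 or more of 8 libraries (3 of 7 where a mouse was left out) were tested as log2(FPKM + 1) by limma 3.58.1 in R 4.3.3 with trended, robust variances and Benjamini-Hochberg adjustment. The added 1 understates the change of low genes. Differences between weeks were contrasts in 1 fit of all 48 islet libraries. On simulated data with 200 of 11704 genes changed by 1.5, the test found between 97.5% and 99.5%. The simulated noise was normal and independent between genes and libraries, and only genes above a minimum mean level were changed. It held no shift shared by many genes of 1 mouse, so this share does not carry over to the real libraries or to low genes. Figures and summaries used Python 3.11.15, pandas 2.3.3 and matplotlib 3.10.9.

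The groups compared, the gene lists and the tests were chosen with earlier results of these data known. Named are the 15 highest and 15 lowest DEGs, every listed hormone, up to 4 called genes of each list (or the 2 nearest), the 10 leading genes of each test between weeks, and Nnt and Y-linked genes. Genes named otherwise were chosen after their values were seen. These were Abcg1, Amy2a5, Casr, Cd68, Clps, Ctrb1, Dpp4, Gc, H2-Aa, Krt7, Mafa, Neurog3, Nkx6-1, Pdx1, Prss2, Slc2a2, Slc7a2, Sox9 and Ttr. A few genes that this rule names are not reported here. Cck, Gast, Gal and Adcyap1 were too low to test. Alternatives were another pseudocount, no filter, 2 other scalings, pooled or non-robust variances and leaving out each library.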

Additional observations from a re-analysis of the deposited data

Results flagged for a closer look

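Among 82 groups of 4 mice (41 genes, 2 diets), 8 held a mouse whose distance to the nearest of the other 3 exceeded Dixon's 95% critical share of the group's range, which chance exceeds in about 1 of 20 groups. In 3 of the 8 this mouse was HFD511, with 7.03 FPKM of P3h2, the lowest HFD value, and 4630 FPKM of Gcg and 88.4 FPKM of Gpx3, the highest. CD507 stood apart in 3 genes, with 18.3 FPKM of Npy, 4.77 FPKM of Kcnj12 and 26160 FPKM of Iapp, each the highest CD value, and CD505 in a pair, with 13.7 FPKM of Pcp4 and 0.87 FPKM of Cck, again the highest.

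The HFD effect at week 20 differed from the mean effect of the other 5 weeks for 25 genes (limma, adjusted p under 0.05). The difference on the log2 scale was -0.74 for Tnfrsf23, -0.93 for Gpx3, -0.51 for Lingo1, -0.45 for Kcnk16, -1.06 for Scd2, -0.30 for BC017158, -1.01 for Sfrp5, -0.69 for Uprt, -0.69 for Ccnd2 and -0.52 for Ffar4. It was 0.53 for Tifa, 0.88 for Gls2, 0.81 for Ly86, 0.43 for Ccdc109b and 0.41 for Psmg4. Ribosomal protein genes made up 6 of the 13 positive ones, among them 0.38 for Rps20, 0.36 for Rpl35, 0.32 for Rps24, 0.35 for Rpl32 and 0.36 for Rps12. LOC100044627 and LOC100862455, both at 0.41, have the same values in every library and are 1 measurement.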

How the results depend on the processing

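No gene that passed the test and is named by the rule changed direction under any alternative run. Of those that did not pass, Eif2s3y (0.05) was at -0.05 without CD501, -0.016 without HFD517 and -0.05 without HFD518, and Nnt (-0.03) at 0.0041 with insulin left out of the total. With a pseudocount of 0.1 there were 116 DEGs, 34 higher and 82 lower. Pooling the spread of all 12 islet groups gave 1101 genes past the adjusted p, 489 higher and 612 lower, and median ratio scaling gave 304 higher. With a library left out, the DEGs numbered 38 to 106 (5 to 34 higher), and the genes past the adjusted p 140 to 2207 (35 to 1078 higher, 100 to 1129 lower), the highest without HFD511 and the lowest without HFD517 or HFD518. The difference from week 16 was called for 3 genes with insulin left out of the total and for 0 to 18 with a library left out. That from week 24 was called for 1 gene with median ratio scaling, 4 with insulin left out and 0 to 19 with a library left out, and that from the other weeks for 0 to 358. The cause was not tested. The other settings kept these counts within 1.5 times. With 4 mice a diet, calls near the threshold rest on single mice, and the unknown depth leaves the counting error of low genes unmeasured. No paired analysis was possible because the replicate numbers name separate mice on different diets and no label links them.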

Other observations

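The ribosomal protein genes were counted after the values of some were seen, so the following is a description only. Of 76 tested genes of cytosolic ribosomal proteins, the structural parts of the ribosome, 76 had a higher mean in HFD mice at week 20, with a median log2 fold change of 0.29 beside -0.016 over all tested genes. Of these, 20 passed the adjusted p (limma), against 1.53% of all genes called higher. Their summed level was 21053, 20477, 21573 and 20459 FPKM in CD501, CD502, CD505 and CD507, and 22384, 24792, 27341 and 26671 FPKM in HFD511, HFD516, HFD517 and HFD518. The sums did not overlap, and HFD511 was nearest to the CD mice. The number called was 52 with median ratio scaling, 12 with insulin left out of the total, 72 without HFD511, 5 without HFD516, 1 without CD505 and 0 without any 1 of the other libraries. Over all genes, the number called higher in the same fits was 304 of 11693, 178 of 12132, 1078 of 11819, 119 of 11800 and 75 of 11786. Without the other libraries it lay between 35 (HFD517) and 67 (CD507). At weeks 4, 8, 12, 16 and 24, the number with a higher mean was 21, 74, 42, 35 and 36 of 76, with medians of -0.03, 0.15, 0.0070, -0.0080 and -0.0039. The medians over all tested genes of those weeks were -0.035, -0.106, 0.0080, 0.011 and 0.077. At week 8, too, the ribosomal median thus lay above that of all genes, so such a shift was not seen at week 20 alone.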
